A study of Homo sapiens with 18 samples.

Results

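Genes of the unfolded protein response and of protein folding in the endoplasmic reticulum (ER) were measured in C4-2B cells, a human prostate cancer cell line. The 42 genes were picked by name among the 26475 genes of the FPKM tables for 1 of 7 roles. These were 6 sensors and regulators of the response, 10 chaperones and cofactors mainly of the HSP70 and HSP90 kind and 2 lectin chaperones. The others were 7 disulfide isomerases, 10 genes of ER-associated degradation, 5 of translocation and signal peptide processing and 2 of the vesicle coat. The rule itself uses no measured value, but the members and the further gene lists were chosen with earlier results of these data known. Counts of members beside shares of all genes are therefore descriptions. All 42 had a row in every table, and all 42 passed the filter of at least 10 counts in at least 3 libraries in each fit. Poly(A) RNA was sequenced in 18 libraries, 3 in each of 6 groups. After 48 hours (2 days in the sample labels) cells had received DMSO vehicle or 0.1 µM of VIC-1911, an inhibitor of the mitotic kinase AURKA. After 7 days they had received DMSO vehicle, 0.1 µM of VIC-1911, 1 µM of olaparib, an inhibitor of the DNA repair enzyme PARP, or both drugs. Every group was the same line, labelled wild type, in the same medium with fetal bovine serum, and a single line is 1 genetic background. Nothing says that the 3 libraries of a group came from separate cultures, so p-values measure the spread between these libraries, which may be technical.

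Proteins that enter the ER are folded there by chaperones, given disulfide bonds by isomerases and, where folding fails, sent back to the cytosol and degraded by the proteasome. When unfolded protein builds up, the membrane sensors ERN1 (also called IRE1), EIF2AK3 (PERK) and ATF6 switch on the unfolded protein response, in which the transcription factors XBP1, ATF6 and ATF4 raise chaperone, degradation and translocation genes. Prostate luminal cells are secretory and make large amounts of protein that passes through the ER. Gene-level counts do not separate the spliced, active XBP1 mRNA from the unspliced one, so they give the summed amount per gene and not the activity of a sensor.

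Counts per library summed to between 3245273 and 7184420 after 48 hours and to between 4967931 and 19684208 after 7 days, with olaparib replicate 1 the lowest of the later set. The lowest count of any member was 26 at 48 hours and 31 at 7 days, both for DERL3. All 7 luminal markers used here, KLK3, KLK2, FOLH1, HOXB13, KRT8, KRT18 and EPCAM, reached 1 FPKM (fragments scaled to gene length and library size) in every group. Their summed level was between 2111 and 2437 FPKM at 48 hours, between 3775 and 3795 FPKM in vehicle of 7 days and between 2298 and 2734 FPKM in the treated libraries of 7 days. Of 6 fibroblast markers 1 reached 1 FPKM (COL1A1, list sum 1.39 to 2.63 FPKM), and so did 1 of 5 leukocyte markers (CD68, list sum 5.81 to 10.4 FPKM, highest with olaparib and the combination) and 0 of 4 endothelial markers (list sum 0.173 to 0.754 FPKM). The fall of the luminal sum went along with the results at 7 days, and its part in them was not tested. In bulk RNA, fewer cells of a kind and less RNA per cell cannot be told apart. The library names at 7 days run in one series of numbers for vehicle and VIC-1911 and in another for olaparib and the combination. A difference between these runs and the effect of olaparib cannot be told apart, whereas the contrast of VIC-1911 with vehicle and that of the combination with olaparib each lie within a run.

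After 7 days nearly the whole set was lower in each treated group, whereas after 48 hours of VIC-1911 few members differed. In the edgeR test at an adjusted p under 0.05, VIC-1911 at 48 hours raised 2 of 42 members (SEC61B and SEC31A), against 7.5% of all genes tested, and lowered 3 (XBP1, HERPUD1 and DNAJC10), against 7.19%. At 7 days VIC-1911 lowered 38 members, against 25.8% of all genes, and raised 1 (SDF2L1), against 26.6%. Olaparib lowered 40, against 25.9% of all genes, and raised 0, against 28.1%. The combination lowered 41, against 28% of all genes, and raised 0, against 28.6%. The calls at 48 hours depended on the processing: over 14 other settings SEC61B was not called in 10, HERPUD1 in 6, DNAJC10 in 4 and SEC31A in 1, and without VIC-1911 replicate 1 or 2 the members lower fell from 3 to 1. For the 0 counts at 7 days edgeR gave 1 member higher at an unadjusted p under 0.05 with either treatment, and DESeq2 and limma gave 0. The median log2 fold change of the members was 0.00 with VIC-1911 at 48 hours, -0.43 at 7 days, -0.66 with olaparib and -0.74 with the combination, and the medians over all genes tested lay between -0.01 and 0.01.

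**Figure D1:**
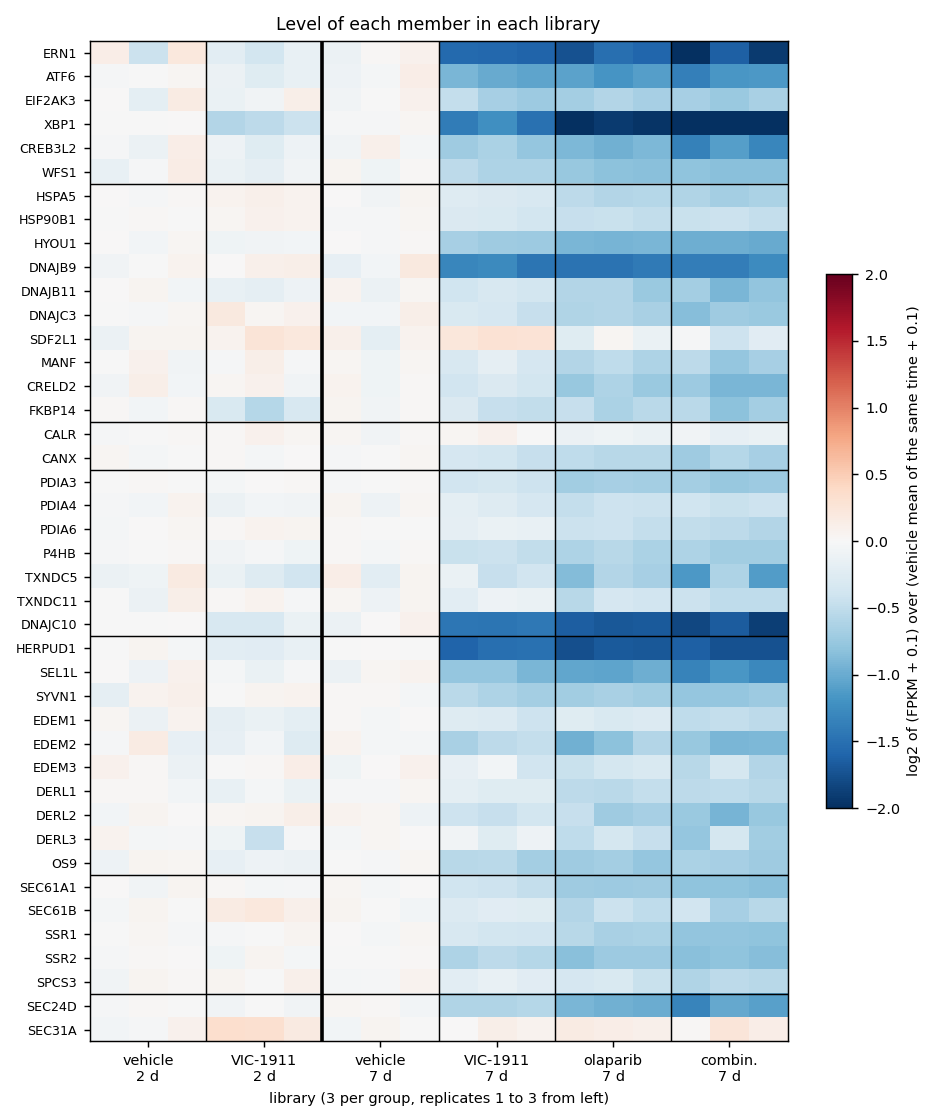
Each row is 1 of the 42 members, grouped by role, and each column 1 of the 18 libraries; colour gives the log2 of FPKM + 0.1 over the vehicle mean of the same time + 0.1. The VIC-1911 columns of 48 hours stay pale, while the 9 treated columns of 7 days are blue for most rows, with SEC31A and CALR near white and SDF2L1 red with VIC-1911 alone.

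Calls with at least a 1.5-fold fall numbered 0 members at 48 hours, against 1.33% of all genes, and 16 with VIC-1911 at 7 days, against 9.16%. They numbered 26 with olaparib, against 9.25%, and 30 with the combination, against 10.5%. In FPKM the 3 treated libraries lay below the 3 vehicle libraries for 11 members with VIC-1911 at 48 hours, against 18.4% of all genes. At 7 days the same held for 36 members with VIC-1911 (25.4% of all genes), 40 with olaparib (26.9%) and 39 with the combination (29.1%). Taken library by library, the median of the members relative to the vehicle mean was between -0.44 and -0.38 on the log2 scale in the VIC-1911 libraries of 7 days, between -0.65 and -0.60 with olaparib and between -0.76 and -0.72 with the combination. These 3 ranges did not overlap. The 3 comparisons share the same vehicle libraries. SEC31A was called in none of them.

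Promoters of 13 members held an exact match to a known response element, and other forms of the elements were not searched. The matches are shown because the members that hold them did not all move alike. The ER stress element (ERSE, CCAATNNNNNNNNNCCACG), its shorter form ERSE-II (ATTGGNCCACG) and the 8-base XBP1 and ATF6 site (TGACGTGG, called UPRE here) were searched on both strands of the RefSeq promoters of GRCh38.p14, which run from 250 bases before to 50 bases after a start site. Of the 42 members 37 had a promoter in that table, and FKBP14, PDIA3, DERL1, DERL3 and SEC24D had none. ERSE was found in 7 of 37 members (18.9%) and in 0.0916% of 27305 genes, ERSE-II in 3 members (8.11%) and 0.0696% of genes, and UPRE in 4 members (10.8%) and 0.927% of genes. The full windows of XBP1, HSPA5 and HERPUD1 are given 5′ to 3′ on the strand of the gene. Capitals mark the fixed bases of the element, and for HERPUD1 its free base as well:
XBP1, chr22:28800520-28800819, minus strand: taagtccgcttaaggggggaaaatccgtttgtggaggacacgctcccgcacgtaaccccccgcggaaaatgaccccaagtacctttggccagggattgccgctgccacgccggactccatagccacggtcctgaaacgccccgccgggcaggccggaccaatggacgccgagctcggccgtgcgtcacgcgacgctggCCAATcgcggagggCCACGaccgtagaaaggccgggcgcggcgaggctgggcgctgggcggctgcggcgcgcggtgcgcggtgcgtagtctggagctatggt
HSPA5, chr9:125241294-125241593, minus strand: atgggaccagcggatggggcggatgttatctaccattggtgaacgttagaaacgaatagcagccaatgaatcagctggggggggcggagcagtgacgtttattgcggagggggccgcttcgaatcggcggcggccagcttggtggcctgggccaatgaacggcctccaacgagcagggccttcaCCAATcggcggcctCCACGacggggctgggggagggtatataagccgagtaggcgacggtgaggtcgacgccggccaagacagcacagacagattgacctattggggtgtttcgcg
HERPUD1, chr16:56931892-56932191, plus strand: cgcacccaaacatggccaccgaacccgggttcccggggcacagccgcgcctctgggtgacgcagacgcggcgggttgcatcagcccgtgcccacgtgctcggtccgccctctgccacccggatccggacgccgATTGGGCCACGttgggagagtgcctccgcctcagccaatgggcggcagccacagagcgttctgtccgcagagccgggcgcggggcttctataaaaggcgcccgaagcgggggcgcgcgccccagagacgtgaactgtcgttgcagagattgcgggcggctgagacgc

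The element of XBP1 began 52 bases before 1 of its 2 start sites in the table, that of HSPA5 66 and that of HERPUD1 (ERSE-II) 117. The elements of the other 7 members with an ERSE or ERSE-II are given on the gene's strand, with the fixed bases in capitals and the free ones in lower case, and a match is a description and not a binding site:
PDIA6, 86 bases before 1 of its 2 starts in the table: CCAATgagccgcagCCACG
CANX, 151 bases before 1 of its 4 starts in the table: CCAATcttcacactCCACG
HSP90B1, 194 bases before the start: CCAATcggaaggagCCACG
HSP90B1, 89 bases before the start, opposite strand: CGTGGtgcggcgcgATTGG
CALR, 225 bases before the start, opposite strand: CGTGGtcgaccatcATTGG
CRELD2, 80 bases before the start, opposite strand: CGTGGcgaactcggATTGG
SDF2L1, 188 bases before the start, opposite strand (ERSE-II): CGTGGaCCAAT
HYOU1, 185 and 79 bases before the start, opposite strand (ERSE-II): CGTGGtCCAAT

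The other XBP1 and PDIA6 windows held none of these elements, and the CANX element lay in 3 of 4 windows. HYOU1 also held a UPRE that overlaps the first of its ERSE-II matches, and DNAJC10, TXNDC5 and TXNDC11 held a UPRE. The 10 members with an ERSE or ERSE-II had a median log2 fold change of -0.38 with VIC-1911 at 7 days, -0.57 with olaparib and -0.64 with the combination. The 27 members with a promoter and neither element had -0.48, -0.68 and -0.79. The ranges overlapped: members with an element ran from -1.58 (HERPUD1) to 0.23 (SDF2L1) with VIC-1911 at 7 days, and those without from -1.63 (ERN1) to 0.02 (SEC31A).

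All 6 sensors and regulators were lower with each treatment at 7 days, every one by at least 1.5-fold, and for all 6 the treated libraries lay below the vehicle libraries. XBP1 (chromosome 22, 28794555 to 28800597, minus strand, in GRCh38 as all positions here), the transcription factor whose mRNA ERN1 splices, was the member with the largest fall in both olaparib groups. It was measured at 179, 181 and 182 FPKM in vehicle and 120.1, 126 and 134 FPKM with VIC-1911 after 48 hours. After 7 days XBP1 stood at 328, 331 and 346 FPKM in vehicle, 127, 143 and 119 with VIC-1911, 80.1, 88.4 and 86 with olaparib and 79.2, 78.8 and 77.1 with the combination. The 3 libraries of a group lay close together at both times, and vehicle was higher than every treated library. The log2 fold change of XBP1 was -0.50 ± 0.05 at 48 hours (± is the SE of the edgeR fit, adjusted p = 3.3e-10) and -1.41 ± 0.05, -1.99 ± 0.05 and -2.10 ± 0.05 at 7 days with VIC-1911, olaparib and the combination, the order used throughout (largest adjusted p of the 3, 9e-20). ERN1 (chromosome 17, 64039080 to 64130819, minus strand), the kinase and ribonuclease of the response, had 5.78, 3.87 and 6.09 FPKM in vehicle and 4.53, 4.05 and 4.72 FPKM with VIC-1911 after 48 hours, with overlapping groups. At 7 days ERN1 had 14.2, 15.7 and 16.4 FPKM in vehicle, 5.21, 5.16 and 5.05 with VIC-1911, 4.57, 5.36 and 5.10 with olaparib and 3.67, 4.90 and 4.04 with the combination, and its log2 fold changes were -1.63 ± 0.08, -1.61 ± 0.08 and -1.89 ± 0.08 (largest adjusted p, 1.6e-16).

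ATF6 (chromosome 1, 161766298 to 161977574, plus strand), a membrane-bound factor that is cut free in the Golgi, had 6.87, 6.92 and 7.15 FPKM in vehicle and 6.40, 5.90 and 6.29 FPKM with VIC-1911 at 48 hours. All 3 VIC-1911 libraries were below vehicle, yet the difference of -0.16 ± 0.07 did not pass (adjusted p = 0.15). At 7 days ATF6 had 11.7, 12.2 and 13.9 FPKM in vehicle, 6.64, 6.18 and 5.99 with VIC-1911, 5.95, 5.48 and 5.80 with olaparib and 4.83, 5.59 and 5.61 with the combination, and its log2 fold changes were -1.04 ± 0.07, -1.15 ± 0.07 and -1.23 ± 0.07 (largest adjusted p, 7.3e-14). EIF2AK3 (chromosome 2, 88556741 to 88691518, minus strand), the kinase that slows translation under ER stress, had 5.67, 4.92 and 6.36 FPKM in vehicle and 5.14, 5.37 and 6.12 FPKM with VIC-1911 at 48 hours and overlapped between groups. After 7 days EIF2AK3 gave 7.76, 8.06 and 8.61 FPKM in vehicle, 5.85, 5.10 and 4.87 with VIC-1911, 5.03, 5.37 and 5.09 with olaparib and 5.11, 4.83 and 5.16 with the combination, and the 3 treatments were nearly equal at -0.67 ± 0.07, -0.66 ± 0.07 and -0.68 ± 0.07 (largest adjusted p, 6.4e-09).

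CREB3L2 (chromosome 7, 137874979 to 138002086, minus strand), a membrane-bound factor of secretory pathway genes, had 9.80, 9.15 and 11 FPKM in vehicle and 9.33, 8.42 and 9.28 FPKM with VIC-1911 at 48 hours. At 7 days its levels were 14.4, 16.2 and 14.6 FPKM in vehicle, 9.15, 9.68 and 8.76 with VIC-1911, 8.02, 7.69 and 8.01 with olaparib and 5.86, 6.98 and 6.02 with the combination, so that the combination libraries lay below all others. The log2 fold changes of CREB3L2 were -0.77 ± 0.06, -0.96 ± 0.06 and -1.28 ± 0.06 (largest adjusted p, 8.9e-12). WFS1 (chromosome 4, 6269849 to 6303265, plus strand), the ER membrane protein wolframin, had 11.9, 13 and 14.6 FPKM in vehicle and 12.1, 11.6 and 12.5 FPKM with VIC-1911 at 48 hours, and at 7 days 25, 22.7 and 24.5 FPKM in vehicle, 16.8, 15.6 and 15.7 with VIC-1911, 14.1, 13.6 and 13.4 with olaparib and 13.8, 13.5 and 13.5 with the combination. Its change was -0.63 ± 0.05, -0.83 ± 0.05 and -0.83 ± 0.05 on the log2 scale, and olaparib and the combination overlapped.

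**Figure D2:**
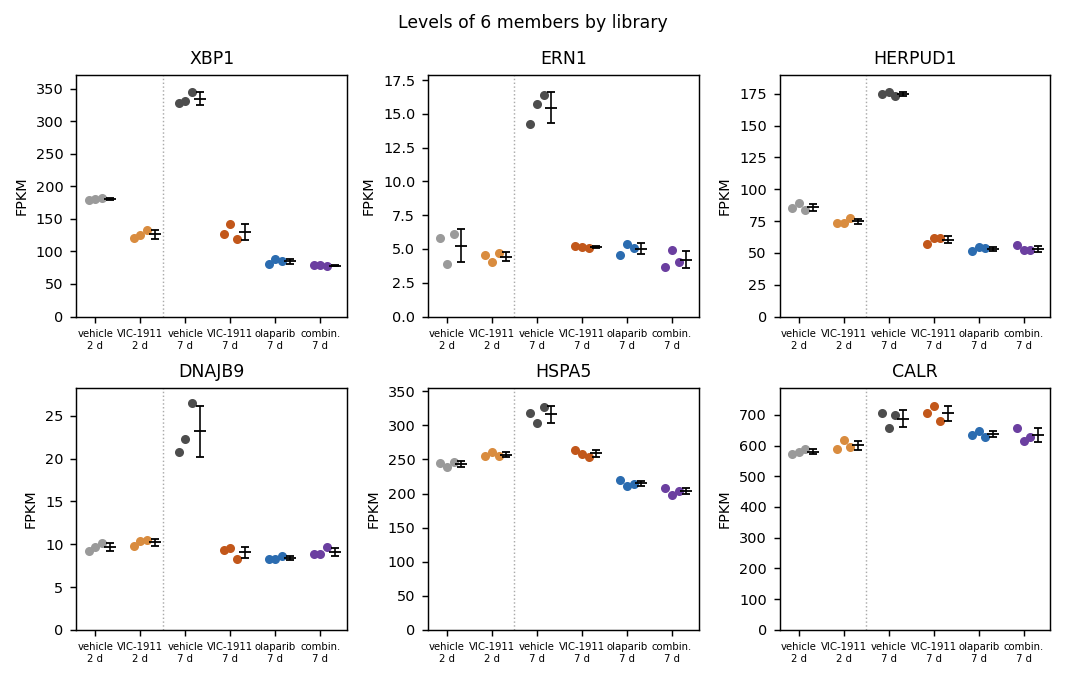
FPKM (vertical axes, from 0) of XBP1, ERN1, HERPUD1, DNAJB9, HSPA5 and CALR in the 6 groups; coloured points are single libraries, black bars the mean with the SD of 3 libraries, and the dotted line parts the 48-hour from the 7-day table. In 5 of the panels the 3 vehicle libraries of 7 days stand above every other library, while for CALR vehicle overlaps with VIC-1911 and with the combination.

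The 10 chaperones and cofactors were mainly of the HSP70 and HSP90 kind, and also held FKBP14, a prolyl isomerase, and CRELD2. Of these 10, 0 were called at 48 hours. At 7 days 9 were lower with VIC-1911, 9 with olaparib and 10 with the combination. At 48 hours 3 of the 10 had an unadjusted p under 0.05 in edgeR, DESeq2 called 0, and limma called 0 at a pseudocount of 0.1 and 1 (FKBP14) at a pseudocount of 1. HSPA5 (chromosome 9, 125234853 to 125241382, minus strand), also called BiP, is the HSP70 of the ER and holds the sensors inactive. It had 244, 238 and 246 FPKM in vehicle and 255, 261 and 256 FPKM with VIC-1911 at 48 hours, and the VIC-1911 libraries were the higher ones, by 0.10 ± 0.04 (adjusted p = 0.11, not passed). At 7 days HSPA5 stood at 319, 303 and 328 FPKM in vehicle, 264, 259 and 254 with VIC-1911, 219, 212 and 214 with olaparib and 209, 198 and 204 with the combination, with 4 groups that did not overlap. Its log2 fold changes were -0.33 ± 0.04, -0.58 ± 0.04 and -0.64 ± 0.04 (largest adjusted p, 3.5e-08). HSP90B1, the HSP90 of the ER, had 413, 419.9 and 413 FPKM in vehicle and 428, 439 and 436 FPKM with VIC-1911 at 48 hours, and at 7 days 411, 414 and 432 FPKM in vehicle, 343, 339 and 326 with VIC-1911, 304, 309 and 297 with olaparib and 308, 312 and 299.8 with the combination. Its change at 7 days was -0.37 ± 0.04, -0.48 ± 0.04 and -0.45 ± 0.04 (largest adjusted p, 4.3e-09), and olaparib and the combination overlapped.

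DNAJB9 (chromosome 7, 108569867 to 108574850, plus strand), a J-domain cochaperone that returns ERN1 to its inactive state, had 9.21, 9.67 and 10.1 FPKM in vehicle and 9.77, 10.3 and 10.5 FPKM with VIC-1911 at 48 hours, and the groups overlapped. At 7 days DNAJB9 had 20.7, 22.3 and 26.5 FPKM in vehicle, 9.28, 9.56 and 8.33 with VIC-1911, 8.30, 8.29 and 8.67 with olaparib and 8.87, 8.80 and 9.66 with the combination. It fell the most among the chaperones with all 3 treatments, with log2 fold changes of -1.39 ± 0.08, -1.45 ± 0.08 and -1.33 ± 0.08 (largest adjusted p, 5.1e-15), and its combination libraries all lay above its olaparib libraries without passing the test (log2 difference 0.12 ± 0.09, adjusted p = 0.39). HYOU1 (chromosome 11, 119044188 to 119057227, minus strand), the exchange factor that frees nucleotide from HSPA5, had 86.2, 82.4 and 88.4 FPKM in vehicle and 81.1, 81.3 and 82.5 FPKM with VIC-1911 at 48 hours. After 7 days HYOU1 measured 145, 142 and 146 FPKM in vehicle, 91.2, 88.1 and 86.8 with VIC-1911, 76.2, 75.9 and 76.1 with olaparib and 73.2, 73.3 and 71.7 with the combination, and each group was narrow and lay apart from the next. The log2 fold changes of HYOU1 were -0.75 ± 0.04, -0.94 ± 0.04 and -0.99 ± 0.04 (largest adjusted p, 6.4e-16).

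DNAJB11 and DNAJC3 are further J-domain partners of HSPA5. DNAJB11 had 66.8, 69 and 64.5 FPKM in vehicle and 60.4, 58.7 and 62.2 FPKM with VIC-1911 at 48 hours, and at 7 days 75.9, 66.9 and 74.3 FPKM in vehicle, 55.1, 57.8 and 55.8 with VIC-1911, 48.1, 48 and 43.1 with olaparib and 45, 38.4 and 41.8 with the combination. DNAJC3 had 15.5, 15.3 and 16.1 FPKM in vehicle and 17.9, 16.1 and 16.7 FPKM with VIC-1911 at 48 hours, and at 7 days 23, 23.1 and 25.9 FPKM in vehicle, 19.4, 19 and 17.5 with VIC-1911, 15.8, 16 and 15.3 with olaparib and 13.3, 14.7 and 14.3 with the combination. Both were lower by similar amounts, with log2 fold changes for DNAJB11 of -0.41 ± 0.06, -0.66 ± 0.06 and -0.79 ± 0.06 and for DNAJC3 of -0.40 ± 0.05, -0.62 ± 0.06 and -0.76 ± 0.05, and for both the treated libraries lay below vehicle in all 3 comparisons. MANF, a small ER protein that binds HSPA5 and can be secreted, had 140.5, 149 and 135 FPKM in vehicle and 139, 153 and 139.9 FPKM with VIC-1911 at 48 hours, and at 7 days 169, 156 and 169.8 FPKM in vehicle, 132, 145 and 131 with VIC-1911, 109, 116 and 108 with olaparib and 115, 96.7 and 104 with the combination. CRELD2, a secreted ER protein induced by ER stress, had 46, 52.3 and 46.3 FPKM in vehicle and 49.5, 51.2 and 45.9 FPKM with VIC-1911 at 48 hours, and at 7 days 71.8, 64.5 and 69.6 FPKM in vehicle, 52.7, 56.2 and 53 with VIC-1911, 40.4, 44.7 and 41.2 with olaparib and 41.3, 36.2 and 36.5 with the combination. The log2 fold changes were -0.32 ± 0.06, -0.58 ± 0.06 and -0.64 ± 0.06 for MANF and -0.39 ± 0.05, -0.71 ± 0.06 and -0.85 ± 0.06 for CRELD2, and the largest adjusted p of the 12 tests of these 4 genes was 1.6e-05.

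FKBP14, a prolyl isomerase that acts on collagen, was the lowest of these chaperones in FPKM, at 4.27, 4.02 and 4.28 FPKM in vehicle and 3.39, 2.79 and 3.33 FPKM with VIC-1911 after 48 hours, and after 7 days 5.15, 4.70 and 5.04 FPKM in vehicle, 4.06, 3.60 and 3.51 with VIC-1911, 3.57, 3.17 and 3.38 with olaparib and 3.37, 2.76 and 3.05 with the combination. Its changes were -0.46 ± 0.08, -0.59 ± 0.08 and -0.68 ± 0.08 at 7 days (largest adjusted p, 2.3e-05) and -0.27 ± 0.12 at 48 hours (adjusted p = 0.13). SDF2L1 (chromosome 22, 21642302 to 21644299, plus strand), a partner of DNAJB11, went the other way with VIC-1911 alone. It had 54.2, 60.8 and 60.5 FPKM in vehicle and 61.3, 69.9 and 67.6 FPKM with VIC-1911 at 48 hours, and at 7 days 64, 52.4 and 62.9 FPKM in vehicle, 69.8, 72.9 and 72.1 with VIC-1911, 50.7, 61.3 and 54.7 with olaparib and 58.9, 44.9 and 51.1 with the combination. The VIC-1911 libraries lay above vehicle at both times, and the olaparib and combination libraries overlapped with vehicle. The log2 fold change of SDF2L1 with VIC-1911 was 0.14 ± 0.07 at 48 hours (adjusted p = 0.22) and 0.23 ± 0.08 at 7 days (adjusted p = 0.015). With olaparib it was -0.09 ± 0.08 (adjusted p = 0.35) and with the combination -0.19 ± 0.08 (adjusted p = 0.038). The call with the combination was lost in 9 of 15 other settings (-0.31 to -0.11), among them without vehicle replicate 1 or 3 or combination replicate 2 or 3. The call with VIC-1911 was lost without vehicle replicate 2, at 0.11.

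The lectin chaperones CALR (calreticulin) and CANX (calnexin) hold glycoproteins while they fold, the first in the lumen and the other in the membrane. CALR (chromosome 19, 12938578 to 12944489, plus strand) had the highest FPKM of all 42 members in every group, at 572, 580.0 and 589 FPKM in vehicle and 589.8, 618 and 596 FPKM with VIC-1911 after 48 hours, and after 7 days 706, 658 and 699.8 FPKM in vehicle, 706, 729 and 681 with VIC-1911, 635, 647 and 629 with olaparib and 658, 616 and 628 with the combination. At 7 days vehicle overlapped with VIC-1911 and with the combination, and the log2 fold changes were -0.01 ± 0.04, -0.13 ± 0.04 and -0.12 ± 0.04 (adjusted p = 0.87, 0.0086 and 0.013). The call of CALR was lost in 3 of 15 other settings with olaparib and in 4 with the combination. CANX had 143, 135 and 138 FPKM in vehicle and 141, 136 and 139.6 FPKM with VIC-1911 at 48 hours, and at 7 days 177, 180.5 and 185 FPKM in vehicle, 144, 141 and 131 with VIC-1911, 127, 123 and 124 with olaparib and 110.3, 122 and 114 with the combination, with all treated libraries below vehicle. Its log2 fold changes were -0.43 ± 0.04, -0.55 ± 0.04 and -0.65 ± 0.04 (largest adjusted p, 1.8e-09). So of this pair 1 was lower in all 3 comparisons, and CALR, with the smaller values, was lower in the 2 that hold olaparib.

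All 7 disulfide isomerases and related thioredoxin-domain proteins were lower with each treatment at 7 days, and DNAJC10 was the only one called at 48 hours. DNAJC10 (chromosome 2, 182716255 to 182794464, plus strand) has a J domain and reduces disulfide bonds of proteins bound for degradation. It had 21, 20.9 and 21.3 FPKM in vehicle and 16.9, 16.9 and 19.3 FPKM with VIC-1911 at 48 hours, with the VIC-1911 libraries below vehicle, and 34.3, 37.3 and 39.5 FPKM in vehicle, 13.5, 13.4 and 13.6 with VIC-1911, 11.8, 11.3 and 11.5 with olaparib and 10.4, 11.6 and 9.99 with the combination at 7 days. The log2 fold change of DNAJC10 was -0.22 ± 0.06 at 48 hours (adjusted p = 0.0072) and -1.49 ± 0.05, -1.70 ± 0.06 and -1.80 ± 0.06 at 7 days (largest adjusted p, 1.2e-19). Of the other isomerases TXNDC5 fell the most, with the combination (-0.98). PDIA3, which works with CALR and CANX on glycoproteins, had 249, 256 and 248 FPKM in vehicle and 244, 253 and 254 FPKM with VIC-1911 at 48 hours, and at 7 days 323, 325 and 333 FPKM in vehicle, 251, 255 and 245 with VIC-1911, 201, 207 and 203 with olaparib and 204, 194 and 198 with the combination. P4HB, the founding disulfide isomerase and also a subunit of collagen prolyl hydroxylase, had 416, 419 and 428 FPKM in vehicle and 402, 416 and 399 FPKM with VIC-1911 at 48 hours, and at 7 days 575, 553 and 574 FPKM in vehicle, 415, 423 and 402 with VIC-1911, 369.6, 387 and 366 with olaparib and 370.3, 351 and 352 with the combination. The log2 fold changes were -0.43 ± 0.04, -0.70 ± 0.04 and -0.72 ± 0.04 for PDIA3 and -0.50 ± 0.04, -0.62 ± 0.04 and -0.67 ± 0.04 for P4HB, and treated libraries lay below vehicle throughout.

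PDIA4 had 127, 125 and 136 FPKM in vehicle and 119.8, 124 and 124 FPKM with VIC-1911 at 48 hours, and at 7 days 158, 142 and 157 FPKM in vehicle, 133, 127 and 121 with VIC-1911, 109, 114 and 113 with olaparib and 116, 112 and 114 with the combination, and changed by -0.31 ± 0.04, -0.45 ± 0.05 and -0.42 ± 0.04 on the log2 scale. TXNDC5, an isomerase whose exons are shared with a readthrough transcript, was measured at 5.27, 5.42 and 6.55 FPKM in vehicle and 5.21, 4.78 and 4.38 FPKM with VIC-1911 after 48 hours, and after 7 days 5.17, 4.05 and 4.86 FPKM in vehicle, 4.25, 3.38 and 3.58 with VIC-1911, 2.53, 3.09 and 2.94 with olaparib and 2.07, 3.02 and 2.11 with the combination. The vehicle and VIC-1911 libraries of TXNDC5 overlapped at 7 days, and its log2 fold changes were -0.37 ± 0.12, -0.69 ± 0.12 and -0.98 ± 0.12 (adjusted p = 0.0092, 2.3e-05 and 7.1e-08). PDIA6 ranged at 7 days from 57.4 to 58.9 FPKM in vehicle and from 38.6 to 52.6 FPKM in the 9 treated libraries, and TXNDC11 ranged from 28.5 to 31.6 FPKM in vehicle and from 20.7 to 28.6 FPKM in the 9 treated libraries. Both were lower in all 3 comparisons, with -0.20 ± 0.04, -0.46 ± 0.04 and -0.54 ± 0.04 for PDIA6 and -0.18 ± 0.05, -0.42 ± 0.06 and -0.48 ± 0.06 for TXNDC11. With VIC-1911 the falls of TXNDC5 and TXNDC11 did not pass in limma on log2 FPKM, and that of TXNDC5 did not pass without vehicle replicate 1 (-0.29) or VIC-1911 replicate 2 (-0.31).

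Among the 10 genes of ER-associated degradation, 1 was lower at 48 hours, 9 with VIC-1911 at 7 days and all 10 with olaparib and with the combination. HERPUD1 (chromosome 16, 56932142 to 56944864, plus strand), which gathers the ubiquitin ligase SYVN1 and its partners, had the largest fall of this group. It had 85.1, 89 and 83.4 FPKM in vehicle and 73.8, 73.1 and 77.1 FPKM with VIC-1911 at 48 hours, and at 7 days 174, 176 and 173 FPKM in vehicle, 57.2, 61.6 and 62 with VIC-1911, 51.4, 54.5 and 53.6 with olaparib and 55.9, 52 and 51.9 with the combination. VIC-1911 libraries lay below vehicle at both times, and the olaparib and combination libraries overlapped with each other. The log2 fold change of HERPUD1 was -0.17 ± 0.05 at 48 hours (adjusted p = 0.022) and -1.58 ± 0.05, -1.73 ± 0.05 and -1.71 ± 0.05 at 7 days (largest adjusted p, 3.1e-22). SEL1L, the adaptor of SYVN1, had 13.9, 12.9 and 14.6 FPKM in vehicle and 13.4, 12.6 and 13.5 FPKM with VIC-1911 at 48 hours, and at 7 days 22.7, 25.2 and 25.8 FPKM in vehicle, 14.3, 14.3 and 13 with VIC-1911, 12, 11.8 and 12.4 with olaparib and 9.72, 10.9 and 9.98 with the combination. SYVN1, the ligase itself, had 23.1, 27.7 and 28.2 FPKM in vehicle and 26, 27.2 and 27.7 FPKM with VIC-1911 at 48 hours, and at 7 days 41.7, 41.9 and 39.9 FPKM in vehicle, 28.3, 26.8 and 25.5 with VIC-1911, 25.5, 26.2 and 25.4 with olaparib and 24.1, 24 and 24.9 with the combination. Both were lower in all treated libraries of 7 days, with log2 fold changes of -0.87 ± 0.05, -1.04 ± 0.06 and -1.27 ± 0.06 for SEL1L and -0.67 ± 0.05, -0.70 ± 0.05 and -0.76 ± 0.05 for SYVN1.

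OS9, a lectin that hands glycoproteins to SEL1L, had 56.9, 63.4 and 62.9 FPKM in vehicle and 54.4, 56.7 and 56.3 FPKM with VIC-1911 at 48 hours, and at 7 days 83.8, 83.1 and 87 FPKM in vehicle, 57.7, 58.2 and 52.6 with VIC-1911, 51.8, 52.7 and 49.3 with olaparib and 54.7, 53.3 and 51.8 with the combination, and its log2 fold changes were -0.64 ± 0.05, -0.74 ± 0.05 and -0.67 ± 0.05. EDEM1, EDEM2 and EDEM3 trim mannose from glycoproteins that are to be degraded. EDEM2 had 9.46, 10.7 and 8.52 FPKM in vehicle and 8.52, 9.19 and 8.01 FPKM with VIC-1911 at 48 hours, and at 7 days 13, 12 and 12 FPKM in vehicle, 7.87, 8.59 and 8.89 with VIC-1911, 6.31, 6.96 and 8.22 with olaparib and 7.30, 6.52 and 6.59 with the combination, a change of -0.59 ± 0.08, -0.76 ± 0.09 and -0.86 ± 0.09. EDEM1 ranged at 7 days from 19.7 to 20.8 FPKM in vehicle and from 14.1 to 17.2 FPKM in the 9 treated libraries, and EDEM3 from 14 to 15.8 FPKM in vehicle and from 9.96 to 14.4 FPKM in the 9 treated libraries. Their log2 fold changes were -0.37 ± 0.05, -0.30 ± 0.05 and -0.51 ± 0.05 for EDEM1 and -0.23 ± 0.07, -0.37 ± 0.07 and -0.50 ± 0.07 for EDEM3, and only EDEM3 overlapped between vehicle and VIC-1911.

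The derlins DERL1, DERL2 and DERL3 help proteins leave the ER membrane. DERL1 had 25.1, 25 and 23.8 FPKM in vehicle and 22.2, 24 and 22.4 FPKM with VIC-1911 at 48 hours, and at 7 days 28.8, 28.6 and 30.1 FPKM in vehicle, 25.5, 24.7 and 24.7 with VIC-1911, 20.3, 20.1 and 21 with olaparib and 20.3, 20.4 and 19.8 with the combination. DERL2 had 7.79, 8.43 and 8.12 FPKM in vehicle and 8.37, 8.45 and 8.83 FPKM with VIC-1911 at 48 hours, and at 7 days 10.2, 10.0 and 9.14 FPKM in vehicle, 7.30, 7.06 and 7.54 with VIC-1911, 7.10, 5.97 and 6.11 with olaparib and 5.80, 5.08 and 5.76 with the combination. Both fell with every treatment, with log2 fold changes of -0.27 ± 0.05, -0.52 ± 0.05 and -0.53 ± 0.05 for DERL1 and -0.48 ± 0.07, -0.68 ± 0.07 and -0.83 ± 0.07 for DERL2. DERL3 was the lowest member in every group, with 1.00, 0.917 and 0.929 FPKM in vehicle and 0.890, 0.663 and 0.929 FPKM with VIC-1911 at 48 hours, and at 7 days 1.06, 1.12 and 1.10 FPKM in vehicle, 1.04, 0.914 and 1.01 with VIC-1911, 0.739, 0.840 and 0.766 with olaparib and 0.597, 0.837 and 0.636 with the combination. It differed by -0.20 ± 0.13, -0.49 ± 0.14 and -0.70 ± 0.14 (adjusted p = 0.22, 0.0034 and 7.6e-05), so the value with VIC-1911 did not pass, although its 3 libraries lay below vehicle.

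All 5 genes of translocation and signal peptide processing were lower with each treatment at 7 days. SEC61A1 and SEC61B are subunits of the channel through which new proteins enter the ER. SEC61A1 had 213, 204 and 222 FPKM in vehicle and 216, 207 and 209 FPKM with VIC-1911 at 48 hours, and at 7 days 295, 281 and 288 FPKM in vehicle, 218, 216 and 207 with VIC-1911, 176, 173 and 177 with olaparib and 165, 164 and 161 with the combination, with 4 groups that did not overlap at 7 days. SEC61B had 164, 175 and 167 FPKM in vehicle and 189, 196 and 181 FPKM with VIC-1911 at 48 hours, where VIC-1911 lay above vehicle, and 212, 202 and 197 FPKM in vehicle, 168, 174 and 172 with VIC-1911, 136, 151 and 144 with olaparib and 156, 129 and 139 with the combination at 7 days, where it lay below. The change of SEC61B was 0.17 ± 0.06 at 48 hours (adjusted p = 0.043) and -0.30 ± 0.06, -0.52 ± 0.06 and -0.53 ± 0.06 at 7 days, and that of SEC61A1 was -0.48 ± 0.04, -0.73 ± 0.04 and -0.82 ± 0.04 at 7 days. SSR1 and SSR2 are subunits of a complex beside the channel. SSR1 had 33.2, 34.1 and 32.7 FPKM in vehicle and 32.8, 33.2 and 34.5 FPKM with VIC-1911 at 48 hours, and at 7 days 42, 40.6 and 43.2 FPKM in vehicle, 33.7, 32.6 and 32.1 with VIC-1911, 28.5, 26.7 and 26.9 with olaparib and 24.2, 24.2 and 23.9 with the combination. SSR2 had 176, 182 and 179.8 FPKM in vehicle and 169.7, 186 and 174 FPKM with VIC-1911 at 48 hours, and at 7 days 217, 218 and 222 FPKM in vehicle, 143, 152 and 148 with VIC-1911, 123, 132 and 133 with olaparib and 123, 126 and 121 with the combination. SPCS3, a subunit of signal peptidase, ranged at 7 days from 22.3 to 24.2 FPKM in vehicle and from 15.1 to 20.8 FPKM in the 9 treated libraries. The log2 fold changes were -0.40 ± 0.04, -0.64 ± 0.04 and -0.80 ± 0.04 for SSR1, -0.61 ± 0.04, -0.77 ± 0.04 and -0.83 ± 0.04 for SSR2 and -0.23 ± 0.05, -0.38 ± 0.05 and -0.56 ± 0.05 for SPCS3 (largest adjusted p of the 9, 0.00031).

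The coat of vesicles that leave the ER was measured through 1 gene of its inner and 1 of its outer layer. SEC24D (chromosome 4, 118722823 to 118838683, minus strand), which selects cargo in the inner layer, had 17.4, 18 and 17.6 FPKM in vehicle and 16.7, 17.5 and 16.9 FPKM with VIC-1911 at 48 hours. At 7 days SEC24D had 18.8, 18.6 and 17.6 FPKM in vehicle, 12, 12.1 and 12.3 with VIC-1911, 9.73, 9.39 and 9.13 with olaparib and 7.25, 8.93 and 8.55 with the combination, with 4 groups that did not overlap, and its log2 fold changes were -0.65 ± 0.06, -0.995 ± 0.06 and -1.17 ± 0.06 (largest adjusted p, 4.1e-10). SEC31A (chromosome 4, 82818509 to 82901166, minus strand), of the outer layer, had 20.6, 20.9 and 22.6 FPKM in vehicle and 27.1, 26.6 and 24.3 FPKM with VIC-1911 at 48 hours, and at 7 days 22.3, 24.1 and 23.2 FPKM in vehicle, 23.4, 25.2 and 24.4 with VIC-1911, 26, 25.4 and 25 with olaparib and 23.5, 27.4 and 25.3 with the combination. It was higher with VIC-1911 at 48 hours, by 0.27 ± 0.06 (adjusted p = 0.0018), and at 7 days its values of 0.02 ± 0.05, 0.11 ± 0.05 and 0.12 ± 0.05 did not pass (adjusted p = 0.72, 0.081 and 0.052).

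**Figure D3:**
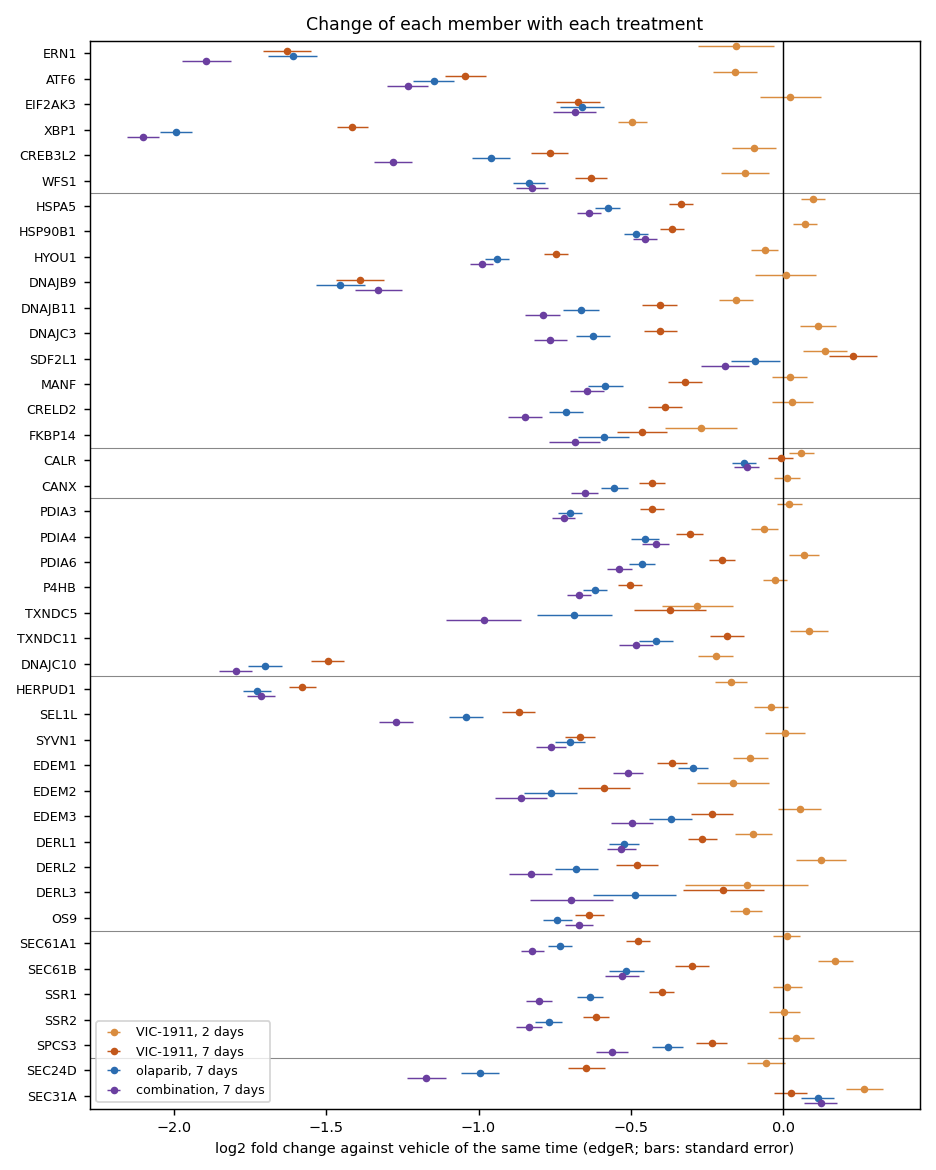
Log2 fold change against vehicle of the same time (horizontal axis, bars are the SE of the edgeR fit) for the 42 members, grouped by role, in 4 comparisons marked by colour. The 48-hour points sit between -0.50 and 0.27 around 0, and the 7-day points run from -2.10 to 0.23, with ERN1, XBP1, DNAJB9, DNAJC10 and HERPUD1 farthest to the left.

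Whether the combination went beyond each single drug was read from direct tests. Against olaparib, within a run of library numbers, the combination was lower for 6 members, against 6.95% of all genes, and higher for 0, against 4.55% (edgeR, with 0 members higher also at an unadjusted p under 0.05, and 0 by DESeq2 and limma). The 6 were CREB3L2 (-0.32 ± 0.07, adjusted p = 0.0012), ERN1 (-0.28 ± 0.09, 0.037), SEL1L (-0.23 ± 0.06, 0.007), EDEM1 (-0.22 ± 0.05, 0.0041), SPCS3 (-0.18 ± 0.05, 0.022) and SSR1 (-0.17 ± 0.04, 0.0099). Over 15 other settings the call was lost in 9 for ERN1, 6 for SPCS3, 2 for SEL1L and 1 for SSR1. The median of all 42 was -0.09 on the log2 scale, and 0.00 over all genes tested. XBP1 differed by -0.11 ± 0.05 (adjusted p = 0.21) with all combination libraries below all olaparib libraries.

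Against VIC-1911 the combination was lower for 36 members, against 22.2% of all genes, and higher for 0, against 20.7%. Olaparib was lower than VIC-1911 for 29 members, against 12.3%, and higher for 0, against 11.1%. For these 0 counts edgeR gave 0 members higher also at an unadjusted p under 0.05, and DESeq2 and limma gave 0. Both comparisons cross the 2 runs of library numbers. XBP1 differed the most, by -0.69 ± 0.05 with the combination and -0.58 ± 0.05 with olaparib (adjusted p = 9.2e-12 and 1.9e-09). The 6 members that did not pass between the combination and VIC-1911 were DNAJB9, EIF2AK3, SYVN1, OS9, HSP90B1 and SEC31A, with log2 differences of 0.06, -0.01, -0.10, -0.03, -0.09 and 0.10. The count of 36 for the combination was 30 to 38 under other settings and 29 to 35 with 1 library left out. Over 15 other settings that call was lost in 8 for PDIA4, 7 for FKBP14 and 6 each for CALR and HERPUD1. It was lost in 5 each for ATF6 and EDEM1 and in 2 each for ERN1 and EDEM2. Without VIC-1911 replicate 2 the count for olaparib against VIC-1911 was 18.

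For most members the fall with VIC-1911 was smaller beside olaparib than without it. The test of that difference, in which the log2 fold change of VIC-1911 over vehicle is taken from that of the combination over olaparib, gave 32 members higher, against 21% of all genes, and 1 lower (SDF2L1), against 22.9%, where higher means that the fall with VIC-1911 was smaller or absent when olaparib was present. The difference was largest for HERPUD1, at 1.59 ± 0.07 on the log2 scale (adjusted p = 6.2e-18), followed by DNAJB9 (1.51 ± 0.12, 8.7e-12), DNAJC10 (1.40 ± 0.08, 1.1e-14), ERN1 (1.35 ± 0.12, 2.2e-10) and XBP1 (1.31 ± 0.07, 9.1e-15). HERPUD1 had means of 174, 60.3, 53.1 and 53.3 FPKM in vehicle, VIC-1911, olaparib and combination, so that the drop from vehicle to VIC-1911 was not repeated from olaparib to the combination. SDF2L1 differed by -0.33 ± 0.11 (adjusted p = 0.017), a call lost in 5 of 20 other settings. These were limma at both pseudocounts and leaving out vehicle replicate 2, olaparib replicate 2 or combination replicate 2. Beside the 32 members higher in edgeR, limma called 24 higher at a pseudocount of 0.1 and 25 at a pseudocount of 1. The median difference over the members was 0.36, and 0.01 over all genes tested. Each contrast in this test lies within a run of library numbers, but the 2 lie in different runs. A VIC-1911 effect that differs between the runs and one that differs with olaparib cannot be told apart. The test uses the same vehicle libraries of 7 days as the comparisons with vehicle, so its counts are not independent of theirs.

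**Figure D4:**
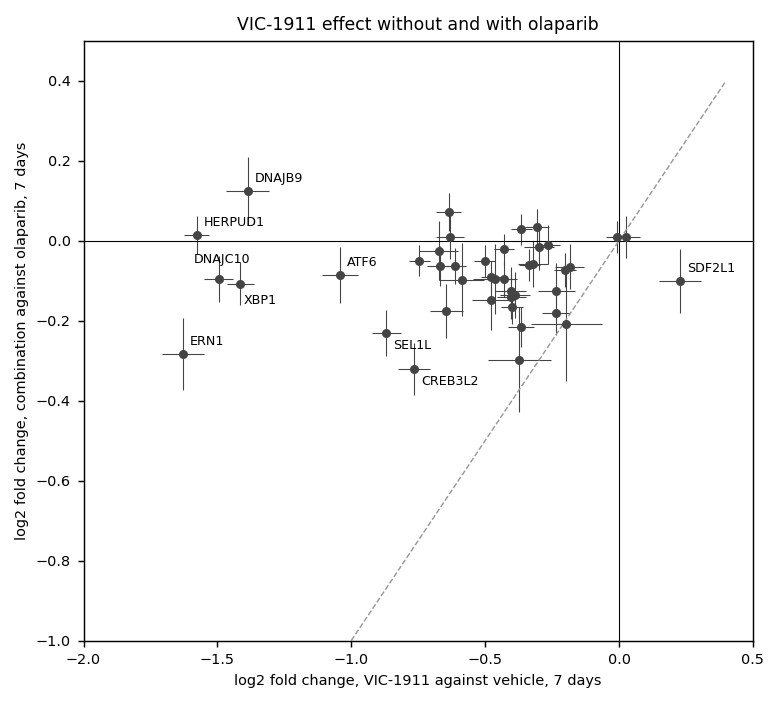
Log2 fold change of VIC-1911 against vehicle at 7 days (horizontal axis) and of the combination against olaparib at 7 days (vertical axis) for the 42 members; bars are the SE of the edgeR fit, and the dashed line marks equal effects. Points spread from -1.63 to 0.23 along the horizontal axis and from -0.32 to 0.12 along the vertical one, all but 3 of them above the dashed line.

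The VIC-1911 effect also differed between the times. The 7-day effect less the 48-hour effect was lower for 36 members, against 14.2% of all genes, and higher for 0, against 14.6% (edgeR, with 0 higher also at an unadjusted p under 0.05 and by DESeq2 and limma), and its median was -0.46 over the members and -0.01 over all genes tested. ERN1 had the most negative difference, -1.49 ± 0.15 (adjusted p = 1.4e-11), then HERPUD1 (-1.42 ± 0.07, 3.2e-21), DNAJB9 (-1.41 ± 0.14, 8.9e-12) and DNAJC10 (-1.29 ± 0.08, 1.1e-17). Over 20 other settings the call was lost in 9 for EDEM3 (-0.36 to -0.21 over all 20) and in 4 for SEC31A (-0.31 to -0.19). For EDEM3 these include leaving out vehicle replicate 2 or 3 of 7 days, VIC-1911 replicate 3 of either time or vehicle replicate 3 of 48 hours, and for SEC31A vehicle replicate 2 of 7 days. The calls of DNAJB11, EDEM1, EDEM2, PDIA4 and TXNDC11 were lost in 2 of the 20 settings each. DESeq2 called 35 members lower and limma 30 at either pseudocount. SDF2L1, TXNDC5, DERL3, CALR, DERL1 and FKBP14 were not called, with differences of 0.08, -0.11, -0.09, -0.08, -0.18 and -0.21. Of the 38 members lower at 7 days, 34 were not called at 48 hours, which alone does not show a difference between the times. The test between the times also uses the vehicle libraries of 7 days, so its counts are not independent of the comparisons with vehicle.

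The levels in vehicle differed between the libraries of the 2 times as well. All 3 vehicle libraries of 7 days lay above all 3 of 48 hours for 35 of 42 members, against 30.5% of all genes, with XBP1 at a mean of 181 ± 1.44 FPKM and then 335 ± 9.39 FPKM (SD, n = 3), ERN1 at 5.25 ± 1.20 and 15.5 ± 1.12, and HERPUD1 at 85.8 ± 2.91 and 174 ± 1.47. Relative to the 48-hour vehicle mean, the median member was at 0.37 on the log2 scale in the 7-day vehicle, at -0.03 with VIC-1911, at -0.25 with olaparib and at -0.34 with the combination. On the log2 scale of FPKM + 0.1 the 7-day mean lay nearer to the 48-hour vehicle than to the 7-day vehicle for 35 members with VIC-1911, against 53.4% of all genes, 38 with olaparib, against 45.3%, and 38 with the combination, against 42.6%. The 2 tables were normalized separately and the times were not tested against each other. The library names of the 2 times also run in separate series of numbers. A difference between these series and one of time in culture cannot be told apart. The 7-day vehicle libraries are the same ones used in the comparisons with vehicle above. The gene length implied by FPKM and counts differed between the tables by a median factor of 1.05 over the members (0.988 to 1.15) and 1.06 over all genes.

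**Figure D5:**
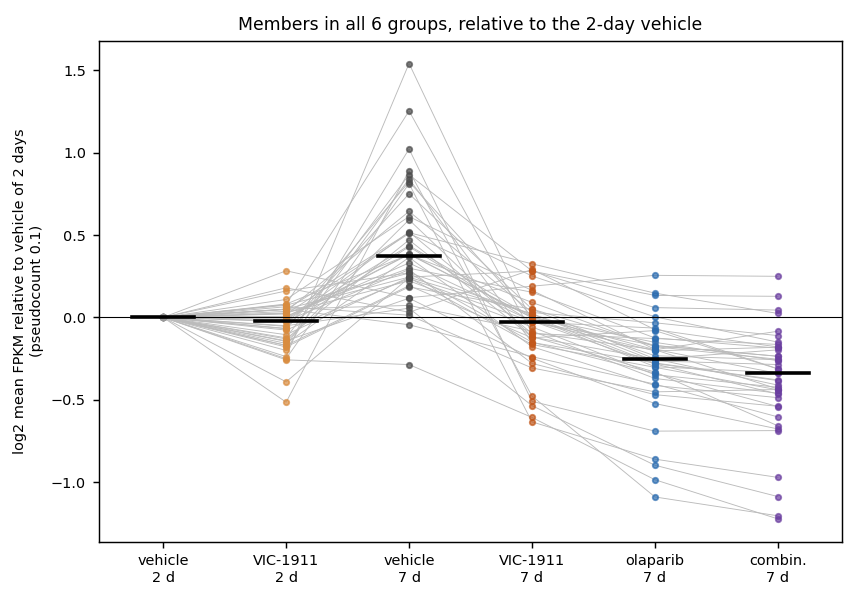
Log2 of mean FPKM + 0.1 relative to the 2-day vehicle (vertical axis) for the 42 members in the 6 groups; grey lines join a member, and black bars are medians. The median is 0.37 in the 7-day vehicle, -0.03 with VIC-1911, -0.25 with olaparib and -0.34 with the combination.

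Other genes of the same pathways, written down by name beside the members, moved in the same direction less uniformly. Of 117 genes listed, 115 were tested, and 9 were lower and 9 higher with VIC-1911 at 48 hours. At 7 days 78 were lower and 17 higher with VIC-1911, 82 and 12 with olaparib and 84 and 13 with the combination, with medians of -0.30, -0.36 and -0.36 on the log2 scale. Among 17 effectors of the stress response, 14, 13 and 13 were lower and 1, 2 and 2 higher. Those lower included ATF4 and genes of its branch, and what acted upstream of ATF4 was not tested. The pseudokinase TRIB3 had a mean of 99.2 FPKM in vehicle of 7 days and 17.6, 13.1 and 12.7 FPKM in the treated groups, and log2 fold changes of -2.55, -2.94 and -2.97. CHAC1, which degrades glutathione, went from 45.6 to 2.47, 2.05 and 2.58 FPKM. The factors ATF4 (-1.49, -1.45 and -1.25) and DDIT3 (-2.38, -2.30 and -1.95) fell too, and at 48 hours TRIB3 (-0.93), CHAC1 (-1.31) and ATF4 (-0.48) were already lower.

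Of 21 further folding and oxidation genes, 17, 19 and 18 were lower at 7 days with VIC-1911, olaparib and the combination, with medians of -0.36, -0.44 and -0.48, and 1 was higher with the combination. Of these CLGN, a relative of calnexin, changed by -1.16, -1.33 and -1.60 and FKBP11 by -0.69, -1.18 and -1.41 on the log2 scale. Among 18 genes of glycan trimming and transfer 15, 15 and 16 were lower, and edgeR gave 0 higher, also at an unadjusted p under 0.05, as did DESeq2 and limma. Of 20 translocon and signal recognition genes 14, 15 and 15 were lower and 2, 2 and 4 higher. The split was even in 20 further degradation genes with VIC-1911, where 8 were lower and 9 higher, and with olaparib and the combination 10 were lower in each and 5 and 4 higher. Of 19 coat and cargo receptor genes 10, 10 and 12 were lower and 5, 3 and 2 higher. The shares of all genes called in each comparison, given above for the members, apply to these lists too. In the test of the interaction 69 of the 115 were higher and 13 lower.

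The counting of 27 members is uncertain because their exons overlap another annotated gene, and for 16 of these the other gene has counts at 7 days. The strand setting is not given in the sources used here. DERL3 shares 2923 exonic bases with SMARCB1, which had a median of 1366 counts per 7-day library against 91.0 for DERL3. SYVN1 shares 130 bases with FAU and 356 with MRPL49, DERL2 shares 301 with MIS12, TXNDC11 shares 70 with SNN and CRELD2 shares 168 with ALG12. TXNDC5 shares 2658 bases with the readthrough gene BLOC1S5-TXNDC5. SEC31A, which was called in no 7-day comparison with vehicle, shares 482 bases with THAP9-AS1.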

How the data were processed

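Poly(A) RNA of 18 C4-2B libraries in 6 groups of 3 was sequenced as paired ends. Per the labels and the study's methods, the authors trimmed reads with Trimmomatic and aligned them to GRCh38 (hg38) with STAR (version 2.6.0 in the submitters' processing notes), and they deposited raw read counts per gene and FPKM values made with an in-house script, in 2 tables for each time. The annotation and strand setting are not given in the sources used here.

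The deposited counts were tested with the quasi-likelihood test of edgeR 4.0.16 in R 4.3.3 with TMM scaling and Benjamini-Hochberg adjustment over all genes tested, in 3 fits: the 6 libraries of 48 hours, the 12 of 7 days, and the vehicle and VIC-1911 libraries of both times. Genes needed at least 10 counts in at least 3 libraries, which left 12241, 14409 and 13832 genes. A gene was called at an adjusted p under 0.05. FPKM values describe levels. Depth (total counts) ranged from 3245273 to 19684208, and it limits precision for the lowest members. DESeq2 1.42.0, limma 3.58.1 on log2(FPKM + 0.1) and log2(FPKM + 1), other scalings and filters, a replicate block and leaving out each library were the alternatives. The edgeR test was tested on simulated data with 50 genes changed at each fold. At 1.25-fold it recovered 39 for VIC-1911 at 48 hours, 39 at 7 days and 22 in the test between the times. At 1.5-fold it recovered 50, 50 and 39, so small changes can be missed. The changed genes were drawn only from genes with higher mean counts, so these rates do not cover the lowest members. Far fewer genes were changed in the simulation than were called in the data at 7 days. Promoters came from RefSeq (GRCh38.p14) and exon overlaps from GENCODE release 44. FPKM in every library is given for the sensors, for up to 3 members of each other role with the smallest adjusted p, and for members called in opposite directions, with a 1.5-fold change or in the interaction test, and the others are given by range. The members and gene lists were chosen with earlier results of these data known. A further 2 luminal markers are not reported here and are not in the summed level.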

Additional observations from a re-analysis of the deposited data

Results flagged for a closer look

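The effect of VIC-1911 at 7 days was different with and without olaparib for 33 members by the edgeR test of the interaction itself (adjusted p under 0.05), and these are listed because 2 effects under the same contrast differed. The values are the log2 fold change of the combination over olaparib minus that of VIC-1911 over vehicle, so a positive value means a smaller fall beside olaparib. Among the sensors and regulators the difference was ERN1 1.35, ATF6 0.96, EIF2AK3 0.65, XBP1 1.31, CREB3L2 0.45 and WFS1 0.64. For the chaperones and cofactors the difference was HSPA5 0.27, HSP90B1 0.39, HYOU1 0.70, DNAJB9 1.51, DNAJB11 0.28, DNAJC3 0.26, SDF2L1 -0.33, MANF 0.26, CRELD2 0.25 and FKBP14 0.37. Of the lectin chaperones the difference was CANX 0.33. In the disulfide isomerases the difference was PDIA3 0.41, PDIA4 0.34, P4HB 0.45 and DNAJC10 1.40. Within ER-associated degradation the difference was HERPUD1 1.59, SEL1L 0.64, SYVN1 0.60, EDEM2 0.49, DERL1 0.26, DERL2 0.33 and OS9 0.71. At the translocon and signal peptidase the difference was SEC61A1 0.39, SEC61B 0.28, SSR1 0.23 and SSR2 0.55. In the vesicle coat the difference was SEC24D 0.47. The call of SDF2L1 was lost in 5 of 20 other settings, that of FKBP14 in 3 and that of SSR1 in 1. Those of CRELD2, DERL2, DNAJB11, DNAJC3, MANF and SEC61B were lost in 2 each.

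The effect of VIC-1911 was also different at 7 days and at 48 hours for 36 members by the edgeR test of that difference, each with a more negative value at 7 days. The sensors and regulators differed by ERN1 -1.49, ATF6 -0.90, EIF2AK3 -0.71, XBP1 -0.93, CREB3L2 -0.69 and WFS1 -0.52. Values of the chaperones and cofactors were HSPA5 -0.45, HSP90B1 -0.45, HYOU1 -0.70, DNAJB9 -1.41, DNAJB11 -0.26, DNAJC3 -0.53, MANF -0.36 and CRELD2 -0.43. The lectin chaperone called was CANX -0.46. Disulfide isomerases gave PDIA3 -0.47, PDIA4 -0.26, PDIA6 -0.29, P4HB -0.49, TXNDC11 -0.28 and DNAJC10 -1.29. Degradation genes gave HERPUD1 -1.42, SEL1L -0.84, SYVN1 -0.69, EDEM1 -0.27, EDEM2 -0.44, EDEM3 -0.30, DERL2 -0.62 and OS9 -0.53. The translocon and signal peptidase gave SEC61A1 -0.50, SEC61B -0.49, SSR1 -0.43, SSR2 -0.63 and SPCS3 -0.29. Coat genes gave SEC24D -0.61 and SEC31A -0.26. The calls of EDEM3 and SEC31A were lost in 9 and 4 of 20 other settings, and those of DNAJB11, EDEM1, EDEM2, PDIA4 and TXNDC11 in 2 each. The cause of either difference was not tested. Both tests use the vehicle libraries of 7 days that the comparisons with vehicle share.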

How the results depend on the processing

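Of 6039 values for single members under other settings, 5776 kept their direction and side of the threshold, 228 were no longer called, 35 became called and 0 changed sign while called. Among 1783 such values for members lower against vehicle at 7 days, 25 were not called (TXNDC5, TXNDC11 and EDEM3 with VIC-1911, CALR with olaparib, SDF2L1 and CALR with the combination). The members higher with VIC-1911 at 48 hours numbered 1 with DESeq2, 1 with upper-quartile scaling, 1 without scaling, 0 with limma at a pseudocount of 0.1 and 1 at a pseudocount of 1, and 1 to 2 when 1 library was left out. The members lower at 48 hours numbered 1 with limma at 0.1 and 1 to 4 when 1 library was left out. With VIC-1911 at 7 days, 0 were higher with limma at 0.1 and 0 to 1 with 1 library left out (0 without vehicle replicate 2). With olaparib 1 was higher without scaling. With the combination 1 was higher with upper-quartile scaling, 1 without scaling, 1 with the replicate block and 0 to 1 with 1 library left out (1 without vehicle replicate 2 or combination replicate 1). Against olaparib the combination was lower for 3 with limma at 0.1 and for 4 to 9 with 1 library left out. Against VIC-1911 it was higher for 1 with upper-quartile scaling and 0 to 1 with 1 library left out (1 without combination replicate 1), and olaparib was lower for 18 to 28 (18 without VIC-1911 replicate 2). The combination was lower than VIC-1911 for 29 to 35 with 1 library left out. Same-numbered libraries shared only a number: their deviations correlated between -0.036 and 0.11 at 7 days and between -0.0029 and 0.044 at 48 hours, 1 of 18 pairs at 7 days over 0.1, and the block moved no other count by over 1.5 times. The cause of these changes was not tested. Depth limits DERL3 most, with as few as 26 counts in a library.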
